A study of Sus scrofa with 12 samples.

Results

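The miR-15/16 family of porcine ovary, with miR-15a, miR-15b, miR-16, miR-195, miR-497, miR-424 and miR-503, was followed across 6 sow ovaries. Members were taken by number from the names of mature miRNAs, with either arm of the hairpin allowed. This gave 8 of the 457 mature miRNAs listed, and none carried miR-322, the rodent name of miR-424. Small RNA and total RNA without ribosomal RNA were sequenced from the left ovaries of 3 sows with small litter size (SLS) and 3 sows with large litter size (LLS). ZD2, ZD3 and ZD12 name the SLS ovaries, and ZD5, ZD7 and ZD8 those of LLS. The stated litter size was 8.48 ± 0.53 piglets in SLS and 16.19 ± 0.43 piglets in LLS, where the series labels do not name the kind of error and the study's methods give results as mean ± SEM. All sows came from 1 commercial herd free of 2 named viruses, carried no treatment or engineered allele in the labels, and were killed 4 days after delivery 4. Breed and age were not given in the sources used here. Each ovary gave 1 library of each kind, so that every spread below is a spread between sows.

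A microRNA guides the Argonaute protein to messenger RNAs through its seed, bases 2 to 8, and lowers their stability and translation. The miR-15/16 family is known for restraining the cell cycle through D and E cyclins, WEE1 and CHEK1, and for lowering survival proteins such as BCL2. Its genes lie in clusters: miR-15a and miR-15b each sit beside a copy of miR-16, miR-497 sits beside miR-195, and miR-424 sits beside miR-503. In the ovary, cell division, survival and the growth and regression of blood vessels change with each follicle and corpus luteum.

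The mature sequences are shown because the shared seed defines which miRNAs can pair with the same sites. They are given 5′ to 3′ as in the deposited table, written as DNA, with the seed in capitals.
miR-497: cAGCAGCAcactgtggtttgt
miR-195: tAGCAGCAcagaaatattggc
miR-16: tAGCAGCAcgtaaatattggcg
miR-15a: tAGCAGCAcataatggtttgt
miR-15b: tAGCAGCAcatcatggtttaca
miR-424-5p: cAGCAGCAattcatgttttgaa
miR-503: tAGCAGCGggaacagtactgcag
miR-424-3p: cAAAACGTgaggcgctgctat

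The seed AGCAGCA was carried by 6 of the 8 members. miR-503 differed in the last base of the seed, and miR-424-3p, the other arm of the miR-424 hairpin, had an unrelated seed. Outside the seed the members fell apart. miR-195 and miR-16 differed at only 2 of 21 bases compared from the 5′ end, miR-15a and miR-15b at 3 of 21, and miR-497 and miR-15a at 4 of 21. The cluster partners miR-497 and miR-195 differed at 9 of 21 bases. Reads of miR-195 and miR-16, which are so alike, may have been assigned to either where they carried errors, and the rule by which reads were assigned was not given in the sources used here. No other miRNA in the table carried the seed of a member. The sequences of miR-103 and miR-107, which are not members, held the letters AGCAGCA shifted by 1 base towards the 5′ end, as shown here.
miR-103: aGCAGCATtgtacagggctatga
miR-107: aGCAGCATtgtacagggctatca

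The positions of the mature sequences were found by exact match to the Sscrofa11.1 reference. miR-497 lay at chr12:52422381-52422401 and miR-195 at chr12:52422083-52422103, both on the minus strand in an intron of the long noncoding RNA gene LOC102161115, with 277 bases between them. miR-15a lay at chr11:17757474-17757494 on the plus strand, in no annotated gene other than its own hairpin, and 119 bases before a copy of miR-16 at chr11:17757614-17757635. miR-15b at chr13:100083191-100083212 was followed after 123 bases by the other copy of miR-16 at chr13:100083336-100083357. This pair lay on the plus strand in an intron of SMC4, which codes for a condensin subunit. Because the mature miR-16 matched the genome at 2 places, its reads sum both loci. On the minus strand of the X chromosome, miR-424-5p lay at chrX:110387948-110387969, miR-424-3p at chrX:110387912-110387932 and miR-503 at chrX:110387621-110387643. These lay in no annotated gene, and the reference annotation listed no hairpin for them. The mature sequences of miR-542 and miR-450 lay downstream, where miR-542-5p was separated from miR-503 by 4955 bases.

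**Figure D1:**
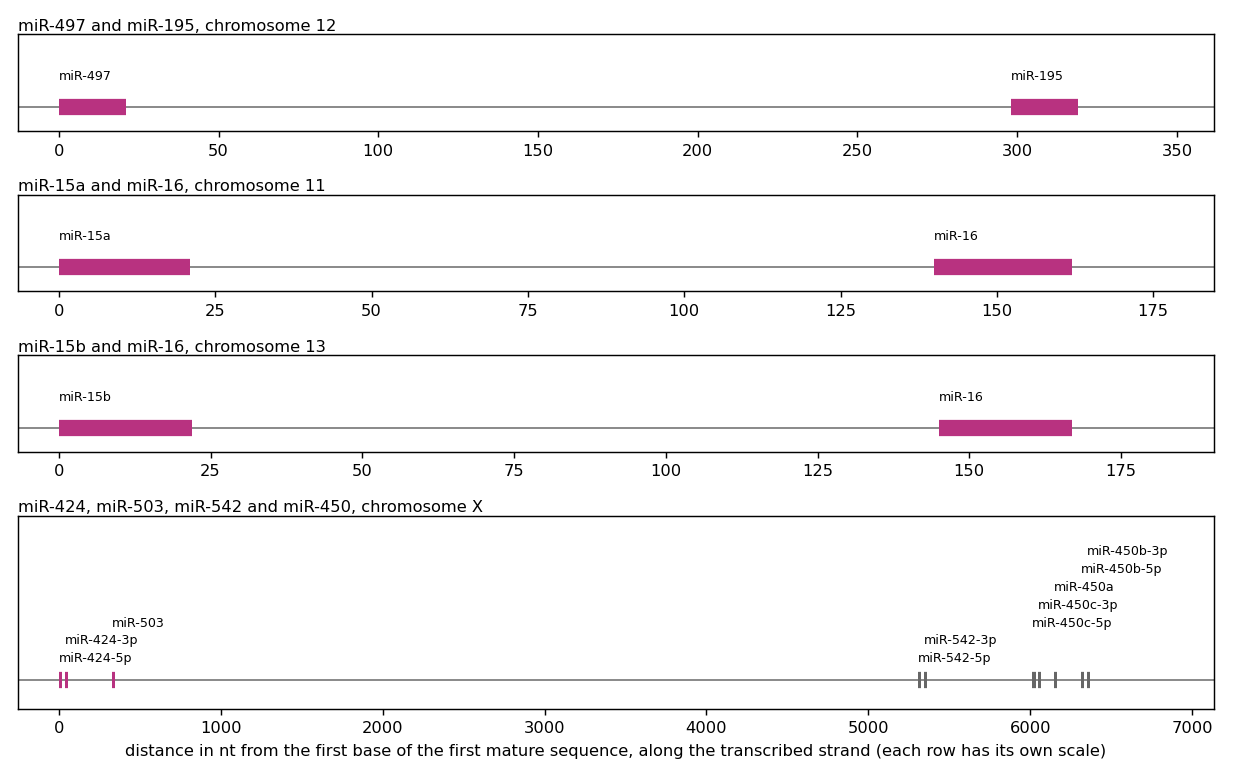
Map of the 4 loci of the family, each drawn from the first base of its first mature sequence along the transcribed strand, with distance in nt on the horizontal axis and a separate scale for each row. Members are magenta and the miR-542 and miR-450 neighbours are grey, and the 277 bases between miR-497 and miR-195 compare with 4955 bases between miR-503 and miR-542-5p.

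The totals behind the RPM values serve here as library totals. They were between 3537619 and 9854086 reads, taking the smallest value of each library as 1 read. Of these reads, 97.6% to 98.7% were on the listed miRNAs, so that they may not be all reads sequenced. The fewest reads behind any member value were 152, for miR-15a in ZD8. Levels are given in reads scaled to the library total (RPM). Some miRNAs are ligated and sequenced more efficiently than others, so that the order of levels between miRNAs carries this unknown factor, and a comparison of the same miRNA between ovaries does not. The ovary ZD8 stood apart in the total RNA. The summed FPKM of 7 luteal genes (7 of 7 in the table, none at 0 in 5 or more ovaries) was 124 there and between 9167 and 12191 in the other 5 ovaries, and 6 of the 7 were lowest in ZD8. The 2 theca genes CYP17A1 and INSL3 summed to 415 in ZD8 and to between 9.31 and 74.4 elsewhere, and 6 of 6 oocyte genes were highest in ZD8. In whole tissue, fewer cells of a type and less RNA per cell cannot be told apart.

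miR-195 was the most abundant member in all 6 ovaries. It was measured at 1065, 1371 and 2161 RPM in SLS (ZD2, ZD3, ZD12 in this order) and at 1577, 868 and 1999 RPM in LLS (ZD5, ZD7, ZD8). The groups overlapped over most of their range, with the highest value in ZD12 and the lowest in ZD7. The next member, miR-16, was at 939.6, 989 and 805 RPM in SLS and at 1251, 649.6 and 709 RPM in LLS, in the same order of ovaries. The LLS ovaries held both its highest and its lowest value.

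miR-497 was at 638, 556 and 808 RPM in the SLS ovaries and at 502.9, 410.3 and 544 RPM in the LLS ovaries. Every LLS value was below every SLS value, although the highest LLS ovary, ZD8, and the lowest SLS ovary, ZD3, were close. The group means were 667 ± 129 RPM in SLS and 486 ± 68.4 RPM in LLS (SD, n = 3). Its share of the summed reads of the family was 20.5%, 15.4% and 18.9% in SLS and 12.2%, 15.5% and 14.9% in LLS. This share overlapped between groups, because ZD7 was just above ZD3. The family as a whole summed to between 2642 and 4270 RPM, or 0.264% to 0.427% of the library total, with ZD7 lowest and ZD12 highest.

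The 5p arm of miR-424 was at 136, 229.5 and 216 RPM in SLS and at 243, 152 and 247 RPM in LLS. Its levels spread by 1.82-fold from the lowest to the highest ovary, the narrowest range in the family. The 3p arm was lower, with 42.1, 72.4 and 59.0 RPM in SLS and 71.0, 92.2 and 68.5 RPM in LLS. ZD2 was lowest for both arms.

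miR-503 varied more than any other member. It was at 143, 215 and 101 RPM in SLS and at 352, 359.8 and 29.0 RPM in LLS. The highest and the lowest values, 12.4-fold apart, were both in LLS, whereas the ranges of the other 7 members were between 1.82-fold and 2.76-fold. The lowest value belonged to ZD8, in which the luteal genes were lowest. The part of the luteal, theca and oocyte difference in this value was not tested.

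miR-15b was at 94.0, 122 and 91.2 RPM in SLS and at 89.5, 73.9 and 48.1 RPM in LLS. Every LLS value was again below every SLS value on the RPM scale, with ZD5 just below ZD12. From read numbers alone, their 95% intervals (Wilson) overlapped, at 82.4 to 97.3 RPM in ZD5 and 85.5 to 97.4 RPM in ZD12. The group means were 102 ± 16.8 RPM in SLS and 70.5 ± 20.9 RPM in LLS (SD, n = 3). miR-15a, the least abundant member by its mean, was at 47.4, 47.8 and 28.6 RPM in SLS and at 48.3, 35.4 and 17.5 RPM in LLS, where the groups overlapped. Both were lowest in ZD8, as was miR-503, while miR-195, miR-16 and miR-497 were lowest in ZD7. Of the 353 miRNAs tested, 39.9% were lowest in ZD8 and 13.3% in ZD7, so that a minimum in ZD8 was common.

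By their mean over the 6 ovaries, the members ranked as miR-195 (1507 RPM), miR-16 (890.4), miR-497 (576), miR-424-5p (204), miR-503 (200.1), miR-15b (86.4), miR-424-3p (67.5) and miR-15a (37.5). Most neighbours in this order had overlapping ranges over the ovaries, although the order within single ovaries was often kept. Only between miR-497 and miR-424-5p did the ranges over the 6 ovaries not overlap. miR-195 was above miR-16 in 6 of 6 ovaries with overlapping ranges, miR-16 was above miR-497 in 5 of 6, and miR-424-5p was above miR-503 in 3 of 6. Further down, miR-503 was above miR-15b in 5 of 6, miR-15b above miR-424-3p in 4 of 6, and miR-424-3p above miR-15a in 5 of 6. The exception for miR-16 was ZD12, in which miR-497 was level with it or slightly above.

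**Figure D2:**
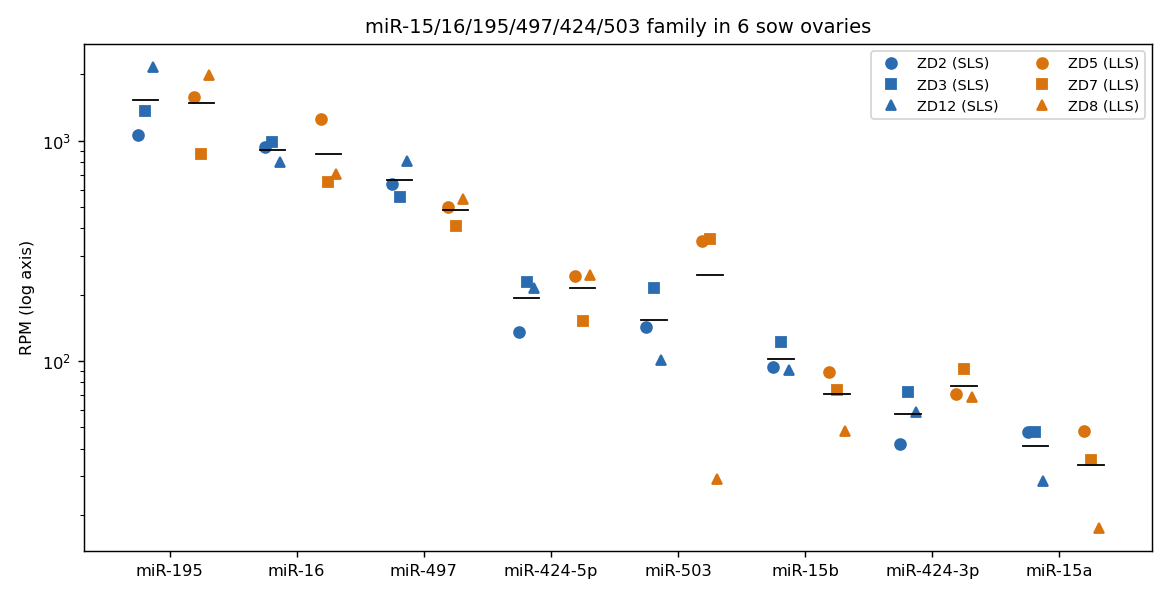
Level of each member in RPM on a log axis, in the 3 SLS ovaries (blue) and the 3 LLS ovaries (orange), with a symbol for each ovary and a black line at each group mean. The SLS and LLS points are separate for miR-497 and miR-15b alone, and miR-503 in ZD8 lies at 29.0 RPM, far under the other LLS ovaries.

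The comparison of LLS with SLS asked whether the family differs with litter size. No member passed the test. limma on log2(RPM + 1), where a call needed a change by more than 1 on the log2 scale in either direction and an adjusted p under 0.05, called 0 of the 8 members and 0 of the 353 miRNAs tested (0%), where a miRNA had to reach 1 RPM in 3 libraries. At an unadjusted p under 0.05, limma called 0 miRNAs, while on the recovered reads edgeR called 4 and DESeq2 7 at that level and 0 after adjustment. The adjusted limma p was 0.997 for all 8 members. Their log2 fold changes lay between -0.56 and 0.43 with 5 below 0 and 3 above, and their median was -0.10, against -0.01 over all miRNAs tested. On the RPM scale, 2 of the 8 members had groups that did not overlap, both lower in LLS. Of all miRNAs tested, 2.83% did not overlap in either direction, with 1.70% lower and 1.13% higher in LLS. After TMM scaling or median centring of the libraries, the groups of miR-497 overlapped.

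For miR-497, the LLS minus SLS difference was -0.45 on the log2 scale (SE 0.35, 95% confidence interval -1.24 to 0.35, limma). For miR-15b the difference was -0.56 (SE 0.43, interval -1.55 to 0.42, limma), and -0.31 without ZD8. The exact two-sided permutation test on log2(RPM + 1) gave p = 0.1 for both, the smallest value that 3 ovaries against 3 allow. These intervals include no change as well as a fall by more than 1. INHA, the inhibin alpha subunit of granulosa and luteal cells, was likewise lower in every LLS ovary than in every SLS ovary, with a log2(FPKM + 1) difference of -1.86 that was not called. INHA carried most of the summed level of the 6 granulosa genes, all in the table, which was between 384 and 826 FPKM in SLS and between 114 and 315 FPKM in LLS. For FSHR, AMH, INHBA and INHBB the groups overlapped, and CYP19A1, the aromatase, was at 0 in 5 ovaries. Of the 44 marker genes of all cell types that were tested, 5 had groups that did not overlap, INHA among them, where 5.12% of all genes tested did not overlap, and none was called by limma with all ovaries. The others were LHCGR, the luteinizing hormone receptor of the luteal list (-1.28), PECAM1 of endothelial cells (-0.96, and -0.52 without ZD8), ACTG2 of smooth muscle (-1.27) and EPCAM of epithelium (2.66, higher in LLS, and 3.47 and called without ZD8). The summed levels of their lists overlapped between groups. The luteal sum was between 9167 and 10808 FPKM in SLS and between 124 and 12191 in LLS, and the endothelial sum between 239.5 and 285 and between 111 and 318. The smooth muscle sum was between 677 and 1873 FPKM in SLS and between 329 and 942 in LLS, and the epithelial sum between 2.58 and 9.73 and between 9.14 and 31.7. The part of these differences in the miR-497 and miR-15b values was not tested.

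The other members gave exact p between 0.3 and 1. miR-195 differed by -0.07 (SE 0.45, interval -1.10 to 0.96) and miR-16 by -0.13 (SE 0.38, interval -0.995 to 0.74). For miR-195 the interval included a fall by 1 and ended just short of a rise by 1. A call would have needed a larger change. The 5p and 3p arms of miR-424 differed by 0.15 (SE 0.41) and 0.43 (SE 0.43). The 3p value lay between 0.23, without ZD2, and 0.61 as single ovaries were left out. miR-15a differed by -0.36 (SE 0.53). The least precise value was that of miR-503, 0.09 with an SE of 0.92 and an interval from -2.02 to 2.20, and without ZD8 it was 1.28. miR-103 and miR-107 differed by -0.12 each (SE 0.48 and 0.51), and both were lowest in ZD8.

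**Figure D3:**
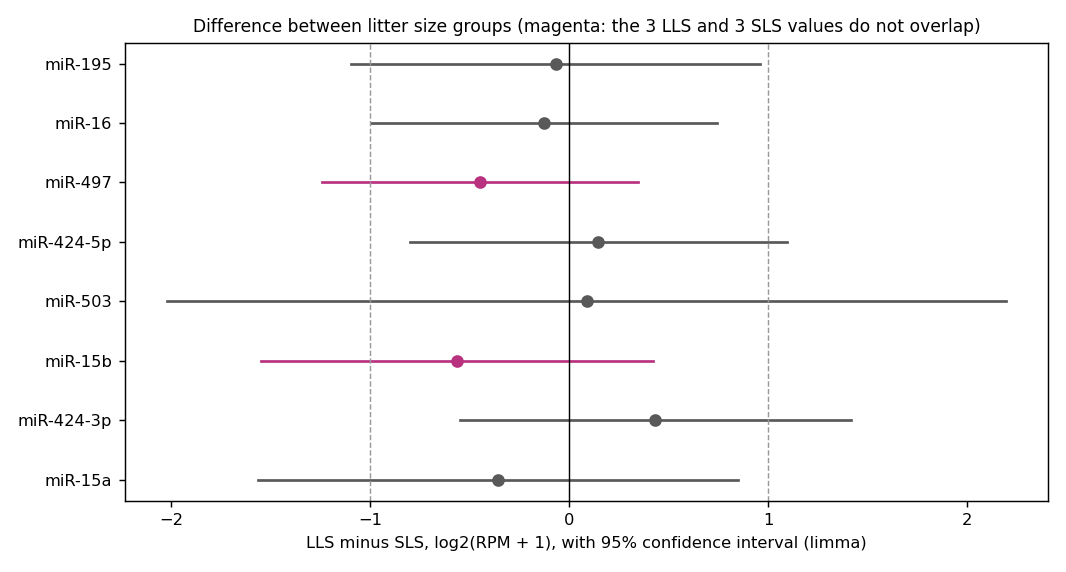
LLS minus SLS difference of each member on the log2(RPM + 1) scale, as a point with its 95% confidence interval from limma. Dashed lines mark -1 and 1, magenta marks the members whose groups did not overlap, and all 8 intervals include 0, the widest being that of miR-503 (-2.02 to 2.20).

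miR-497 and its cluster partner miR-195 were then compared within each ovary, which removes the library total. In every ovary miR-195 was the higher. The ratio of miR-195 to miR-497 was 1.67, 2.47 and 2.68 in SLS and 3.14, 2.12 and 3.68 in LLS. The groups overlapped, because ZD7 lay below 2 of the SLS ovaries. On the log2 scale, miR-497 over miR-195 was -1.15 ± 0.36 in SLS and -1.53 ± 0.41 in LLS (SD, n = 3). The difference of -0.38 had an exact two-sided permutation p of 0.3, or 0.75 after Benjamini-Hochberg adjustment over the 6 pairs of members compared. It was -0.17 without ZD2, -0.21 without ZD8 and -0.61 without ZD7. The ratio of this pair thus moved by 2.20-fold over the ovaries although both lie within the same host gene.

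The X chromosome pair moved further apart. The ratio of miR-424-5p to miR-503 was 0.946, 1.07 and 2.13 in SLS and 0.690, 0.423 and 8.51 in LLS. As a ratio of (RPM + 1) it changed by 19.5-fold from ZD7 to ZD8, and miR-503 was the higher of the pair in 3 ovaries and miR-424-5p in the other 3. The group difference was 0.06 on the log2 scale (exact permutation p = 1), and -1.25 without ZD8. The ratio of the 2 arms of miR-424, which are cut from the same hairpin, was 3.22, 3.17 and 3.66 in SLS and 3.42, 1.65 and 3.61 in LLS. In 5 ovaries the arms kept nearly the same ratio, and ZD7 alone was low (exact permutation p = 0.8 between groups).

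The remaining pairs varied less than miR-424-5p and miR-503. The ratio of miR-16 to miR-15b was 9.998, 8.13 and 8.82 in SLS and 13.97, 8.78 and 14.7 in LLS, and ZD7 again lay with the SLS ovaries (exact permutation p = 0.3). The ratio of miR-15b to miR-15a was 1.98, 2.54 and 3.19 in SLS and 1.85, 2.09 and 2.75 in LLS (exact permutation p = 0.5). The log2 ratio of miR-497 to miR-16 differed by -0.32 between groups (exact permutation p = 0.5). It was -0.060 without ZD5, -0.091 without ZD12 and -0.53 without ZD8. None of the 6 pairs had groups that did not overlap, and the adjusted p were between 0.75 and 1.

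**Figure D4:**
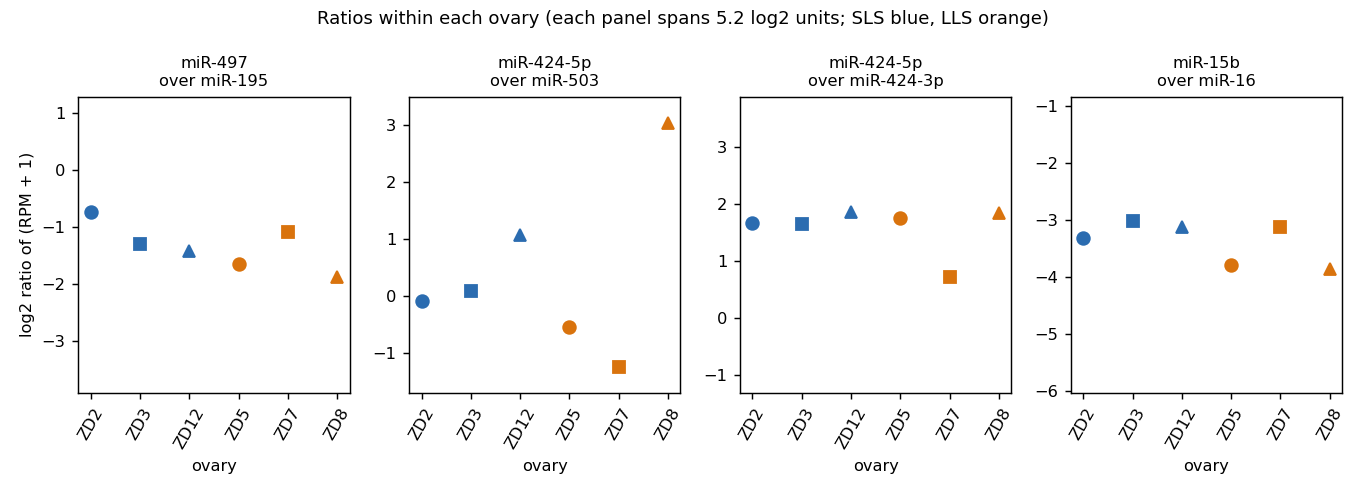
Log2 ratio of 4 pairs of members in each ovary, with (RPM + 1) as the quantity and the same height of axis in every panel. The miR-424-5p over miR-503 panel spans from -1.24 in ZD7 to 3.05 in ZD8, while miR-497 over miR-195 stays between -1.88 and -0.74.

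Likeness to miR-497 was measured as the SD, over the 6 ovaries, of the log2 ratio of 2 miRNAs, among 271 miRNAs with a mean of at least 10 RPM. A small SD says that the pair kept its ratio, and all miRNAs of an ovary share a library and its depth. miR-195, the cluster partner, came at place 33 with an SD of 0.40, and between places 30 and 65 as single ovaries were left out, the last without ZD12. miR-16 came at place 46, miR-424-5p at 58, miR-15b at 62, miR-424-3p at 124, miR-15a at 139 and miR-503 at 253. The 5 nearest miRNAs outside the family were miR-19a (SD 0.22), miR-149 (0.26), miR-214-5p (0.27), miR-455-5p (0.28) and miR-374a-5p (0.29). This list rested on single ovaries. Without ZD2, none of the 5 nearest was among them, and without ZD12 2 of 5 were.

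The values of miR-19a show how near the nearest was. It was at 223, 198 and 251 RPM in SLS and 166, 179 and 249 RPM in LLS. In RPM, ZD8 thus lay within the SLS range for miR-19a and just under it for miR-497. The other members were compared in the same way, and the names that follow were chosen after their values were seen. The nearest to miR-195 was miR-29b (SD 0.10), the nearest to miR-15b was miR-17-5p (0.12), and miR-20b and miR-106a were nearest to miR-15a (0.11 each). miR-15a and miR-15b came at places 7 and 8 in each other's order (SD 0.29). Nearest to miR-503 was miR-2366 (SD 0.30), also lowest in ZD8.

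**Figure D5:**
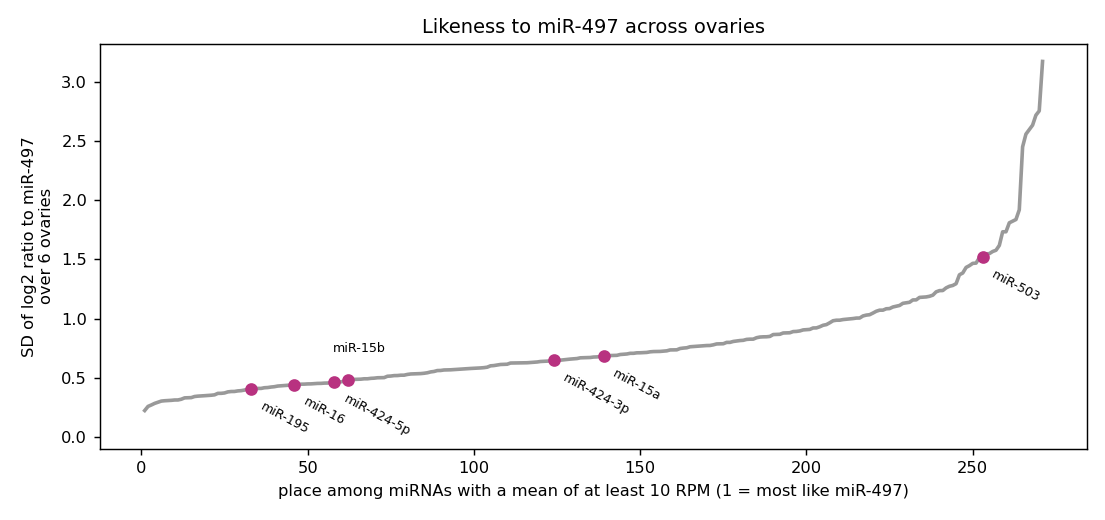
SD of the log2 ratio to miR-497 over 6 ovaries (vertical axis) for the 271 miRNAs compared, ordered from the most to the least alike (grey line), with the other family members as magenta points. miR-195 lies at place 33 and miR-503 at place 253.

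The neighbours of miR-424 and miR-503 on the X chromosome differed in how they varied across the ovaries. miR-450c-5p was at 2527, 1937 and 886 RPM in SLS and at 2228, 3457 and 766 RPM in LLS. miR-450a was at 1608, 976 and 572 RPM in SLS and at 1181, 2159 and 535 RPM in LLS. As with miR-503, ZD7 was highest and ZD8 lowest for these 2 neighbours, with ranges of 4.51-fold and 4.04-fold. They differ only in their last base, so that reads may have been split between them.
miR-450c-5p: tTTTGCGAtgtgttcctaatac
miR-450a: tTTTGCGAtgtgttcctaatat

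The remaining 5 neighbour sequences had narrower ranges, between 1.72-fold for miR-450b-3p and 2.94-fold for miR-450c-3p. miR-542-3p was at 260.2, 341 and 207 RPM in SLS and at 380.0, 318 and 215 RPM in LLS. The SD of the log2 ratio to miR-503 was 0.75 for miR-450c-5p (place 35 in the order of miR-503), 0.89 for miR-450a and 1.06 for miR-542-3p. It was 1.51 for miR-424-5p, at place 185, although miR-424-5p lies nearer on the chromosome. The ratio to miR-424-5p was steadier for miR-542-3p and miR-450b-5p (SD 0.52 each) than for miR-450c-5p (SD 1.14). None of the 7 neighbours passed the limma test between groups (adjusted p = 0.997 each).

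Total RNA of the same ovaries gave the genes that hold the members, in fragments scaled to gene length and library total (FPKM). The host of miR-195 and miR-497, LOC102161115, was at 3.38, 2.31 and 4.17 FPKM in SLS and at 1.78, 1.61 and 8.76 FPKM in LLS. ZD8 was highest for the host but not for miR-497 or miR-195. The log2(FPKM + 1) difference was -0.03 (SE 0.52), and -0.65 without ZD8. SMC4, the host of miR-15b and 1 copy of miR-16, was at 2.81, 9.53 and 5.75 FPKM in SLS and at 5.38, 3.95 and 2.76 FPKM in LLS. ZD3 was highest and ZD8 lowest for both SMC4 and miR-15b. ZD2 was almost as low as ZD8 for SMC4, but for miR-15b it was below only ZD3. The SMC4 difference was -0.40 (SE 0.41, limma, adjusted p = 0.999). Without ZD3 it was -0.046 and without ZD2 -0.78. The hairpin MIR497 was listed at 0 in ZD3 and ZD7, at 7.75 FPKM in ZD8 and at 1.23 or less elsewhere. MIR195 was at 0.82 FPKM in ZD7, 2.36 in ZD12 and 3.49 in ZD8, and at 0 elsewhere. MIR15A was at 0.24 in ZD12, 0.44 in ZD5 and 2.35 in ZD8, MIR16-1 at 0.25 in ZD12, and both were at 0 elsewhere. MIR15B and MIR16-2 were listed at 0 in all 6 ovaries. The hairpins are shorter than the fragments stated in the study's methods, so that these values say little about them.

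Messenger RNAs known as targets of the family were taken from 3 lists, on the cell cycle, on survival and growth signalling, and on vascular and TGF-beta signalling. Of 40 genes listed, 38 reached 1 FPKM in 3 libraries, and limma called 0 of them, as it called 0 of the 12260 genes tested (0%). At an unadjusted p under 0.05, limma counted 0 of the 38 and 216 of all genes (1.76%). Of the 38, 22 had a log2 fold change above 0 and 16 below, with a median of 0.09 against 0.02 over all genes. In 25 of them ZD8 was the highest ovary and in 9 the lowest, where 44.6% of all genes tested were highest and 26.3% lowest in ZD8. Only for 1 of the 38 did the groups not overlap, against 5.12% of all genes.

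That gene was ANLN, whose protein anillin builds the contractile ring in dividing cells. It was at 8.66, 14.3 and 7.95 FPKM in SLS and at 6.85, 6.87 and 2.64 FPKM in LLS, a difference of -0.85 (SE 0.39, limma, adjusted p = 0.999), and -0.48 without ZD8. CCND1, the cyclin D1 that drives entry into S phase, was at 29.6, 28.9 and 22.3 FPKM in SLS and at 22.3, 32.7 and 8.94 FPKM in LLS. ZD8 was lowest, and the difference of -0.48 became 0.016 without it. CCNE1, cyclin E1, lay between 1.22 and 2.43 FPKM with overlapping groups (difference -0.17, SE 0.28). WEE1, the kinase that holds back entry into mitosis, was at 4.08, 6.10 and 7.97 FPKM in SLS and at 3.63, 4.72 and 24.0 FPKM in LLS. Its difference was 0.35, and -0.42 without ZD8. PPM1D, a phosphatase of the DNA damage response, differed by 0.33 (SE 0.35).

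The survival gene BCL2 was at 2.52, 4.58 and 6.40 FPKM in SLS and at 2.90, 2.94 and 28.7 FPKM in LLS. ZD8 stood alone, and the difference was 0.55 with ZD8 and -0.42 without it. RICTOR, a subunit of an mTOR complex, differed by 0.44 (SE 0.41), and MAP2K1, the kinase that activates ERK, by -0.28 (SE 0.24). VEGFA, the main growth factor of blood vessels, was at 27.1, 28.7 and 22.3 FPKM in SLS and at 41.5, 38.0 and 11.3 FPKM in LLS. Both LLS ovaries other than ZD8 were above the SLS ovaries, and ZD8 was below, so that the difference was 0.02 with ZD8 and 0.60 without it. The fibroblast growth factor receptor FGFR1 differed by 0.38 (SE 0.40), and SMURF1 and SMURF2, ubiquitin ligases of TGF-beta signalling, by 0.27 and 0.25. ZD8 was highest for RICTOR, PPM1D, FGFR1, SMURF1 and SMURF2, and without it their differences lay between -0.052 for FGFR1 and 0.12 for SMURF2. Besides its luteal, theca and oocyte genes, the endothelial sum was lowest in ZD8 (111 FPKM, with 4 of 6 genes lowest, against 213 to 318 in the other ovaries). All 3 macrophage genes (sum 30.2 against 13.7 to 25.3) and all 3 T cell genes (12.6 against 1.91 to 4.46) were highest there. The part of these cell type genes in the differences was not tested.

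The 3′ UTRs of the listed targets in the Sscrofa11.1 annotation were searched, on the strand of the messenger RNA, for TGCTGCT, the letters that pair with the seed of miR-497, miR-195, miR-16, miR-15a, miR-15b and miR-424-5p. The match was found in 25 of 38 genes with an annotated 3′ UTR (65.8%), and in 2649 of 11462 tested coding genes (23.1%). The listed genes had longer 3′ UTRs, with a median of 1870.0 nt against 1124.5 nt and had been listed as known targets of the family, so that the share is a description. The miR-503 match CGCTGCT was found in 6 of 38 genes (15.8%) and in 6.48% of all. Sites of genes described above follow, with the match in capitals, in the sense of the messenger RNA.
CCND1, miR-497 seed match: cgttgtttTGCTGCTattggagg
CCND1, miR-503 seed match: ttctcattCGCTGCTaccgagga
CCNE1, first miR-497 seed match: gctccagaTGCTGCTaaggaggg
CCNE1, next miR-497 seed match: tttgtaagTGCTGCTatgtctct
WEE1, first miR-497 seed match: tggtggtgTGCTGCTtatagttc
WEE1, next miR-497 seed match: tgtgaattTGCTGCTattttagt
VEGFA, miR-497 seed match: gtttctctTGCTGCTaaatcacc

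The CCND1 sites were at chr2:3622399-3622421 and chr2:3622467-3622489 on the minus strand. The CCNE1 sites were at chr6:39932203-39932225 and chr6:39932447-39932469 on the plus strand, the WEE1 sites at chr2:49881301-49881323 and chr2:49881025-49881047 on the minus strand, and the VEGFA site at chr7:38760626-38760648 on the plus strand. CCND1 thus held 1 match to each seed, where miR-503 differs from the others in 1 base. All of these but the first site of WEE1 had an A after the match, opposite base 1 of the miRNA. The sites not shown were mixed in this. Among other genes described above, the miR-497 seed matches of PPM1D and MAP2K1 had an A there. Those of RICTOR and SMURF2 did not, and SMURF1 had a match of each kind. BCL2 and ANLN held 0 matches to either seed in 3′ UTRs of 3916 nt and 1216 nt, which says only that these letters are not in the annotated window. Over all tested coding genes, the median log2 fold change was 0.06 with a miR-497 seed match and 0.00 without one. Among the listed targets it was 0.02 in the 23 with a match that reached 1 FPKM in 3 libraries and 0.12 in the 13 without a match.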

How the data were processed

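The authors removed ribosomal RNA for the total RNA libraries, trimmed the reads, and per the labels mapped total RNA reads with HISAT2 and small RNA reads with BWA to Sscrofa11.1. The authors deposited genes as FPKM, and mature miRNAs as reads scaled to the library total (RPM, called TPM there). Whole reads were recovered from 100.0% of 2618 RPM values above 0 (within 0.001 read). The miRNA annotation and the counting programs were not given in the sources used here. The miRNA columns carry the ovary names, by which they were put in groups.

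LLS was compared with SLS by limma 3.58.1 (R 4.3.3) with a trended variance on log2(value + 1), over 353 miRNAs and 12260 genes with at least 1 RPM or FPKM in 3 libraries, with Benjamini-Hochberg adjustment over all of them. The study's tests need reads, which the deposited FPKM are not, so edgeR 4.0.16 and DESeq2 1.42.0 were alternatives on the recovered miRNA reads. Single ratios were compared by the exact permutation test (SciPy 1.17.1). Scripts were tested on simulated data. In the small RNA libraries, 3 reads were 0.304 to 0.848 RPM. The other alternatives were a pseudocount of 0.1, no filter, TMM, median centring, an equal sum of FPKM and leaving out each ovary. For LOC102161115 and 5 marker genes these were added after their values were seen.

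The members, gene lists and tests were chosen with earlier results of these data known. Named were all members, their X chromosome neighbours, miR-103 and miR-107, the 5 miRNAs most like miR-497, host genes, 5 targets chosen by name, and the 3 targets with the smallest p in each list, of which 1 is not reported here. DLEU2, MIR497HG and MIR503HG were not found under these names. Sequences came from the deposited miRNA table and the reference genome.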

Additional observations from a re-analysis of the deposited data

How the results depend on the processing

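No paired analysis was possible because the ovaries of the groups come from different sows and the labels number no replicates. miRNA calls stayed at 0 under all 6 other settings and without any single ovary. Gene calls ranged from 0 to 20 as ovaries were left out, the 20 without ZD8. With all ovaries 0 of 12260 were called. Under the 4 other settings 0 were called too, of which that without a filter tested 23564 genes. miR-497 and miR-15b stayed lower in LLS throughout, between -0.57 and -0.30 and between -0.76 and -0.31 as ovaries were left out, and between -0.49 and -0.38 and between -0.61 and -0.50 under the other settings. The miR-195 difference turned to 0.026 with DESeq2 and that of VEGFA to -0.0029 with median centring. Leaving out 1 ovary turned the direction of 7 of the other log2 differences of genes, which lay between -0.42 and 1.04 for BCL2, -0.87 and 0.016 for CCND1, -0.31 and 0.0012 for CCNE1, -0.052 and 0.61 for FGFR1, -0.0053 and 0.57 for PPM1D, -0.42 and 0.80 for WEE1, and -0.65 and 0.31 for LOC102161115. It did the same for VEGFA (-0.30 to 0.60), miR-195 (-0.33 to 0.28), miR-16 (-0.42 to 0.053), miR-424-5p (-0.089 to 0.38), miR-503 (-0.52 to 1.28) and miR-15a (-0.67 to 0.041). The ratio of miR-424-5p to miR-503 ranged from -1.25 to 0.89 and that of the arms of miR-424 from -0.48 to 0.075, while miR-497 over miR-195 stayed between -0.61 and -0.17. The causes were not tested. The lowest member value rests on 152 reads. With 1 library per ovary, the spread between sows also holds that of sampling and library preparation, which cannot be told apart.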
